A study of Mus musculus with 6 samples.

Results

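The genes that encode the chains of collagens were examined in the outer wall of the aged mouse eye. Members were all genes whose platform symbol follows the pattern of a collagen chain (Col, a number, a, a number) on a probe set named by exactly 1 symbol, and there were 44 of them among 22180 measured genes. At an age of 12 months, total RNA was taken from RPE/choroid/sclera, that is the retinal pigment epithelium (RPE) together with the vascular and fibrous coats behind it. The first group held 3 samples of heterozygous 5XFAD mice, a line carrying human amyloid precursor protein and presenilin 1 transgenes with familial Alzheimer's disease mutations, expressed under a neuronal (Thy1) promoter. The second held 3 samples of non-transgenic wild-type littermates (WT), and neither group was treated. Each sample was hybridised to 1 Affymetrix whole-transcript array, and the labels do not say whether a sample was 1 animal or a pool, so p-values here reflect only how these 6 samples vary, and part of that may be technical. By its title the series concerns macular degeneration of the dry type in aged 5XFAD mice. The question taken up here is which of these structural genes differ with the transgenes.

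Collagens are trimers of chains that wind into a triple helix. Fibrillar collagens build the tensile fibres of the sclera and the choroid, whereas type IV collagen forms the sheet-like network of basement membranes, among them the membranes of the RPE and of the choroidal capillaries that bound Bruch's membrane. Type VIII collagen is a short-chain, network-forming collagen of Descemet's membrane in the cornea and of vessel walls, and in humans the region of COL8A1 is associated with age-related macular degeneration. By chain class, 11 of the 44 genes were fibrillar, 8 belonged to basement membranes (6 chains of type IV, with Col15a1 and Col18a1), 3 formed networks (Col8a1, Col8a2 and Col10a1) and 22 were others.

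The largest difference among the members was in Col8a1, and the second chain of the same collagen, Col8a2, was lower in the same arrays. Type VIII is assembled from the products of these genes, which lie on different chromosomes. The 250 bases before their annotated starts are shown because these chains were lower together. Those of Col4a5 and Col4a6, neighbours on chromosome X that were higher together, are shown for the same reason. Sequences are from RefSeq, build GRCm38.p6, written along the strand of the gene, at chr16:57754738-57754987 (minus strand) for Col8a1, chr4:126286544-126286793 (plus strand) for Col8a2, chrX:141475169-141475418 (plus strand) for Col4a5 and chrX:141474077-141474326 (minus strand) for Col4a6. Capitals mark GC boxes (GGGCGG) and CCAAT boxes (CCAAT) on either strand.
Col8a1: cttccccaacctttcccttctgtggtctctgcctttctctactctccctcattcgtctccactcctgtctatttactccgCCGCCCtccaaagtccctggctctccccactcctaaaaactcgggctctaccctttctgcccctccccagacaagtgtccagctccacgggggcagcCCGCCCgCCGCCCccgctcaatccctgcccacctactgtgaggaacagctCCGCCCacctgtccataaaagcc
Col8a2: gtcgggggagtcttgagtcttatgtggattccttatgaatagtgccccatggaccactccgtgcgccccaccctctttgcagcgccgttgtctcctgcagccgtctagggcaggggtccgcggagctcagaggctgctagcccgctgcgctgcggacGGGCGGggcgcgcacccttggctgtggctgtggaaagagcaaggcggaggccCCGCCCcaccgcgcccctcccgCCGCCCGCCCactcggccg
Col4a5: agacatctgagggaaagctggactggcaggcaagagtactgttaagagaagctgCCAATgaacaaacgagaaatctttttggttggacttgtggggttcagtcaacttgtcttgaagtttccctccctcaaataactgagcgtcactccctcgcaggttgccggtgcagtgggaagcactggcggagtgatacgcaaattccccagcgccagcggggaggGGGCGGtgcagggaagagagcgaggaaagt
Col4a6: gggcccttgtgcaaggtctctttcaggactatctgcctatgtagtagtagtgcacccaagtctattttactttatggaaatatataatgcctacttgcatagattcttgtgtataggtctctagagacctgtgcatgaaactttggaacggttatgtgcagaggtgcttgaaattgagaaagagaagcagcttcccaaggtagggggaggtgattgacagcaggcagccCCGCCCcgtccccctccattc
A GC box occurred 4 times in the window of Col8a1 and 4 times in that of Col8a2, where 2 of the matches overlap, and once each in those of Col4a5 and Col4a6. Of 32851 such windows in the RefSeq table, 32.7% hold at least 1 GC box. The window of Col4a5 also holds a CCAAT box, as 33.9% of all windows do, and the 4 windows hold neither a TATA box (TATAAA, in 12.4% of all windows) nor an AP-1 motif (TGANTCA, in 6.75%). The table had 38 windows for 35 of the 44 members, and 22 of the 38 windows held at least 1 GC box. The share of windows with 4 GC boxes, or of windows with a like GC content, was not computed. GC content was 60.8% for Col8a1, 70.0% for Col8a2, 54.0% for Col4a5 and 47.6% for Col4a6, against a median of 52.4% over all windows. These matches describe letters and not binding.

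No collagen gene passed the threshold between 5XFAD and WT (limma, Benjamini-Hochberg adjusted over all genes, 0 of 44, lowest adjusted p = 0.52 for Col8a1), where 0.0225% of all genes passed. At an unadjusted p under 0.05, limma gave 4 members, or 9.09%, against 6.28% of all genes. Among them 3 were lower in 5XFAD (Col8a1, Col8a2 and Col4a3, against 3.39% of all genes) and 1 was higher (Col4a6, against 2.89%). Leaving out 5XFAD replicate 1, or replicate 2 of that group, reduced the lower count to 1. The higher count was 0 without 5XFAD replicate 3, WT replicate 1 or WT replicate 3, and 2 without WT replicate 2. Without 5XFAD replicate 2 it stayed at 1, but the member was Col5a2 and not Col4a6. All 5XFAD arrays lay below all WT arrays in 6 members (13.6%), against 6.62% of all genes, and above them in 2 members, against 4.72%. These 6 were Col8a1, Col8a2, Col4a3, Col1a1, Col1a2 and Col6a6, and the 2 were Col5a2 and Col11a1. The median log2 difference was -0.03 over the members and -0.01 over all genes, with 18 positive and 26 negative members, against 10478 positive and 11702 negative of all genes. An absolute difference of 0.3 or more was found in 3 members (6.82%) and in 6.51% of all genes. The median SD within groups was 0.117 over the members and 0.145 over all genes. With 3 arrays per group the median standard error of a member was 0.11, and the 95% intervals in the plot of differences by class show the precision reached for each gene.

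**Figure D1:**
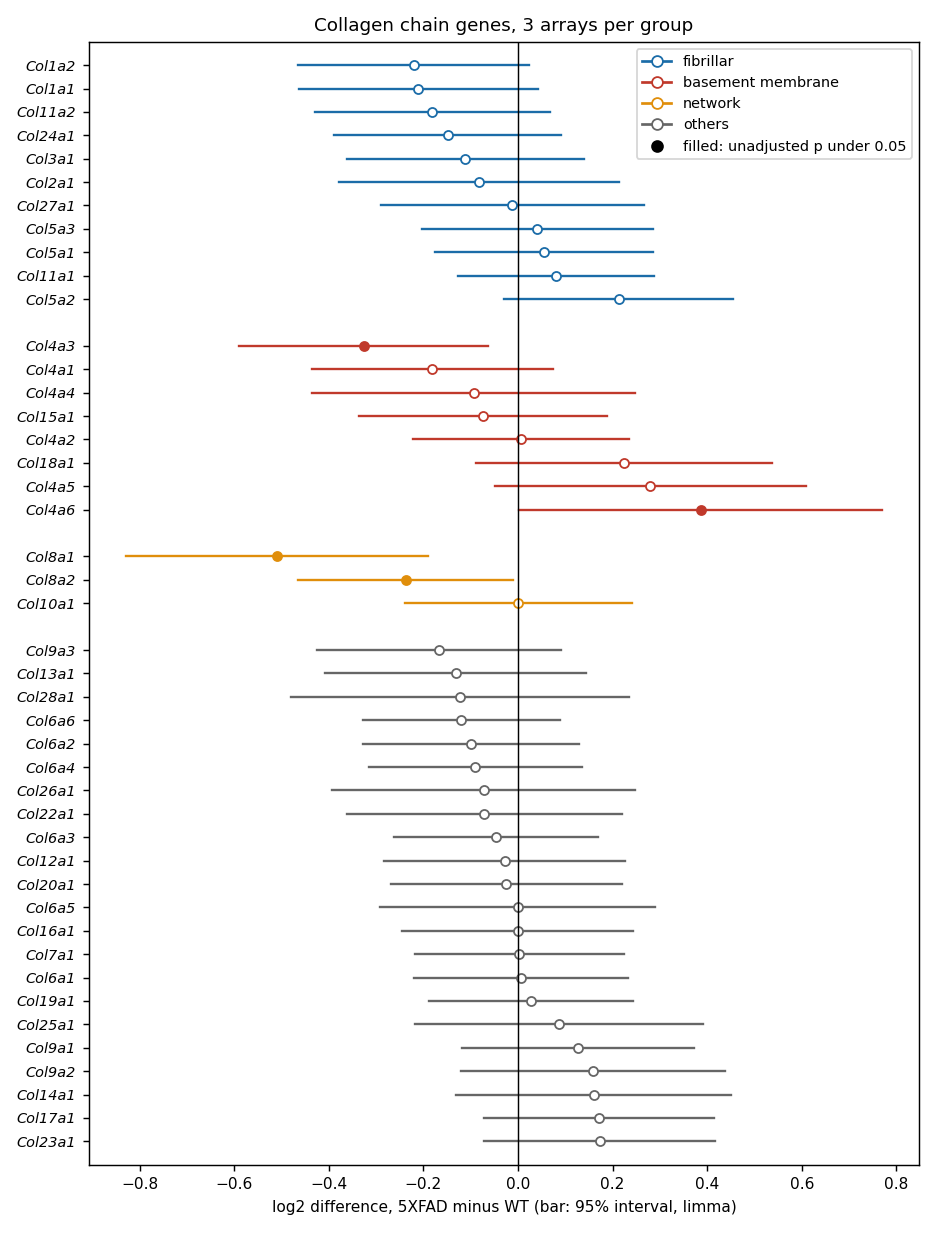
Log2 difference of 5XFAD minus WT (x axis) for each of the 44 collagen genes (y axis), coloured by class, with the 95% interval from limma as a bar and 3 arrays per group. Filled points mark the 4 genes at an unadjusted p under 0.05, and Col8a1 lies farthest to the left at -0.51.

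Among the network-forming chains, Col8a1 signal was 10.43, 10.54 and 10.91 in the 5XFAD arrays, against 11.04, 11.08 and 11.29 in the WT arrays (log2 intensity, replicates 1 to 3, as for all levels given here). Every 5XFAD array lay below every WT array, and 5XFAD replicate 3 lay closest to the WT group. The means were 10.63 ± 0.25 in 5XFAD and 11.14 ± 0.13 in WT (SD, n = 3 each), a difference of -0.51 with a 95% interval of -0.83 to -0.19, or a 0.703-fold level (limma, Benjamini-Hochberg adjusted p = 0.52, unadjusted p = 0.0055). Col8a2, whose human counterpart is mutated in a form of Fuchs corneal dystrophy, had 8.79, 8.65 and 8.77 in 5XFAD, against 8.88, 9.00 and 9.04 in WT. These groups did not overlap either, although the gap between the highest 5XFAD array and the lowest WT array was small. The difference in Col8a2 was -0.24, with an interval of -0.46 to -0.01 and a 0.848-fold level (limma, Benjamini-Hochberg adjusted p = 0.77, unadjusted p = 0.041). Col10a1, the chain of type X collagen of growth plate cartilage, had 8.06, 7.91 and 7.82 in 5XFAD, against 7.83, 7.98 and 7.98 in WT. Its arrays were interleaved, and the difference of 0.0003 had an interval of -0.24 to 0.24. The class median of -0.24 over 3 genes is the value of Col8a2.

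Leaving out each array in turn gave Col8a1 differences between -0.65 and -0.41, and all of these 6 fits had an unadjusted p under 0.05. Col8a2 ran from -0.29 to -0.19 over the same fits, and there 1 of 6 had an unadjusted p under 0.05, the fit without WT replicate 1. Genes that mark the RPE were lower in the same arrays as the type VIII chains. The mean of 16 RPE markers, among them the retinoid genes Rdh10 and Rrh, was between 10.26 and 10.40 in the 5XFAD arrays and between 10.67 and 10.84 in the WT arrays, with 15 of 16 markers negative. The difference of these means was -0.41, beside -0.51 for Col8a1 and -0.24 for Col8a2. The positive RPE marker was Best1 (0.26), which is dim on these arrays. The mean of 8 melanocyte markers was between 10.64 and 10.90 in 5XFAD and between 10.55 and 10.80 in WT, with 6 of 8 positive. With the RPE mean as a covariate, an alternative chosen after seeing the data, the differences were -0.08 for Col8a1 and 0.094 for Col8a2, in a fit where the covariate itself separates the groups. Such a fit cannot split genotype from its covariate. With the surface epithelium mean, which also separates the groups, Col8a1 was at -1.40. In whole tissue, fewer cells of a type and less RNA per cell cannot be told apart, and the part of RPE content in the type VIII differences was not tested further. The mean of 15 fibroblast and sclera markers that are not collagens was between 9.05 and 9.35 in 5XFAD and between 8.90 and 9.14 in WT, with 13 of 15 positive. The 10 endothelial markers had means between 8.54 and 8.85 in 5XFAD, against 8.69 to 8.78 in WT.

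**Figure D2:**
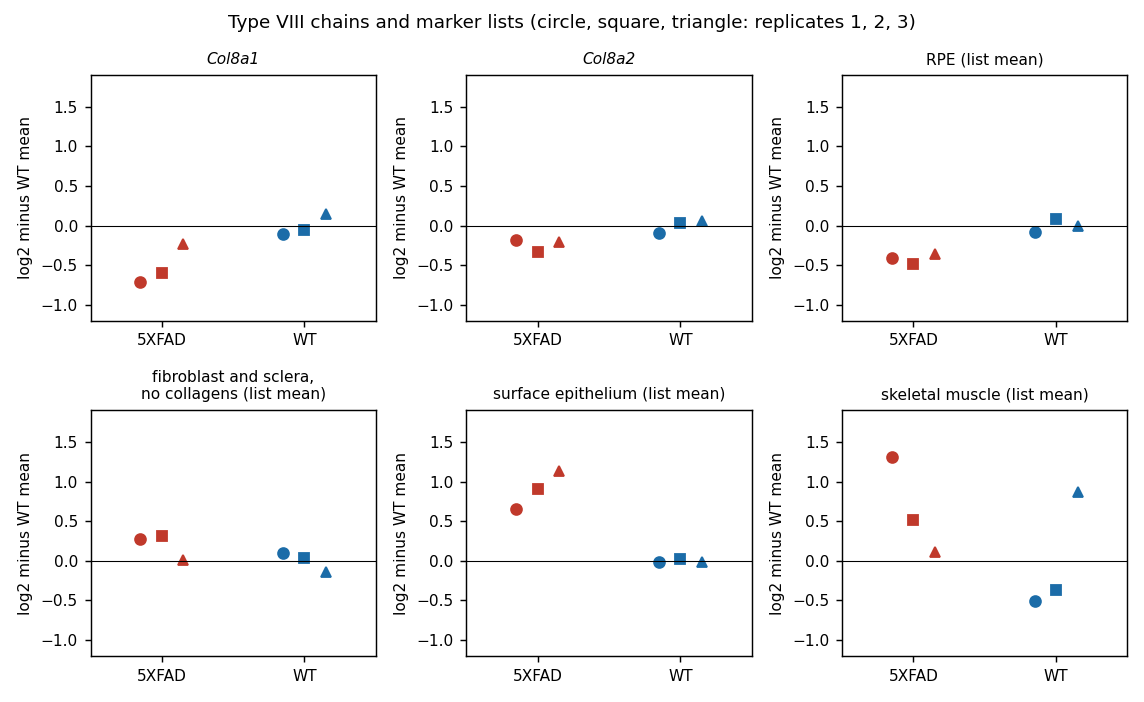
Signal of Col8a1 and Col8a2 and the mean of 4 marker lists in each array, as log2 values minus the WT mean (y axis), with 5XFAD on the left and WT on the right of each panel and a symbol for each replicate. The type VIII chains and the RPE mean were below every WT array in all 3 5XFAD arrays, the surface epithelium mean was above, and the fibroblast and muscle means overlapped.

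Basement membrane chains were spread to both sides, with a class median of -0.03 and 4 of 8 genes positive. The 6 chains of type IV are encoded in 3 neighbouring pairs, Col4a1 with Col4a2, Col4a3 with Col4a4, and Col4a5 with Col4a6. The chains α1 and α2 make the common network of nearly all basement membranes, α3, α4 and α5 make that of the kidney glomerulus and of some ocular membranes, and α5 and α6 occur in epithelial and smooth muscle membranes. Col4a3 had 7.23, 7.08 and 7.43 in 5XFAD, against 7.66, 7.53 and 7.54 in WT. All 5XFAD arrays lay below all WT arrays, and the difference was -0.33 with an interval of -0.59 to -0.06, a 0.797-fold level (limma, Benjamini-Hochberg adjusted p = 0.70, unadjusted p = 0.020). It ran from -0.42 to -0.24 with each array left out. Without 5XFAD replicate 1, 5XFAD replicate 2 or WT replicate 1, Col4a3 was not at an unadjusted p under 0.05 in limma. Its partner Col4a4 had 6.97, 6.85 and 7.38 in 5XFAD, against 7.00, 7.18 and 7.31 in WT, with overlap through 5XFAD replicate 3 and a difference of -0.09 ± 0.15 (SE).

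Col4a6 was the only member higher at an unadjusted p under 0.05. It had 6.63, 6.89 and 7.00 in 5XFAD, against 6.27, 6.83 and 6.27 in WT. WT replicate 2 lay within the range of the 5XFAD arrays, while the other WT arrays lay below all of them. The difference was 0.39 with an interval of 0.003 to 0.77, a 1.31-fold level (limma, Benjamini-Hochberg adjusted p = 0.79, unadjusted p = 0.049). Col4a5 had 6.91, 6.89 and 7.03 in 5XFAD, against 6.49, 7.00 and 6.50 in WT, and WT replicate 2 again stood with the 5XFAD arrays. Its difference was 0.28, with an interval of -0.05 to 0.61 (limma, Benjamini-Hochberg adjusted p = 0.86). Without WT replicate 2 the differences were 0.57 for Col4a6 and 0.45 for Col4a5 (limma, Benjamini-Hochberg adjusted p = 0.26 and 0.29), and without WT replicate 3 they were 0.29 and 0.20 (0.98 for both). Of 16 surface epithelium markers, 8 were above all WT arrays in every 5XFAD array, against 4.72% of all genes, among them the keratins Krt4 and Krt6a. Another 4 had negative differences, the largest in the desmosome gene Dsp (-0.19). The mean over the 16 genes was between 6.61 and 7.08 in 5XFAD and between 5.94 and 5.97 in WT, and in WT replicate 2, where Col4a5 and Col4a6 were high, it was 5.97. Single markers of the list did not move alike over the WT arrays. Pax6 had 7.18, 8.08 and 6.65 there, highest in replicate 2, and Krt13 had 5.31, 5.20 and 5.47, lowest in replicate 2. With the mean of the 16 genes as a covariate the Col4a6 difference was -0.42 (limma, unadjusted p = 0.47), in a fit where the covariate separates the groups. The part of epithelium content in the Col4a5 and Col4a6 values was not tested further. Smooth muscle and pericyte markers had means between 8.72 and 9.05 in 5XFAD, against 8.69 to 8.73 in WT, with 6 of 10 positive, and their part in the Col4a5 and Col4a6 values was not tested.

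The most widespread type IV chains differed by less than 0.2. Col4a1 had 7.49, 7.52 and 7.73 in 5XFAD, against 7.62, 7.84 and 7.81 in WT, a difference of -0.18 with an interval of -0.44 to 0.07. Col4a2 had 7.40, 7.28 and 7.51 in 5XFAD, against 7.36, 7.44 and 7.38 in WT, a difference of 0.006 with an interval of -0.22 to 0.23. The groups overlapped in both genes. Col18a1, whose product carries the antiangiogenic fragment endostatin at its end, had 7.49, 7.40 and 7.84 in 5XFAD, against 7.25, 7.53 and 7.27 in WT. The difference of 0.22 had an interval of -0.09 to 0.54, and WT replicate 2 overlapped the 5XFAD arrays. Col15a1, the related chain of type XV in vessel and muscle membranes, differed by -0.07 ± 0.12 (SE).

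**Figure D3:**
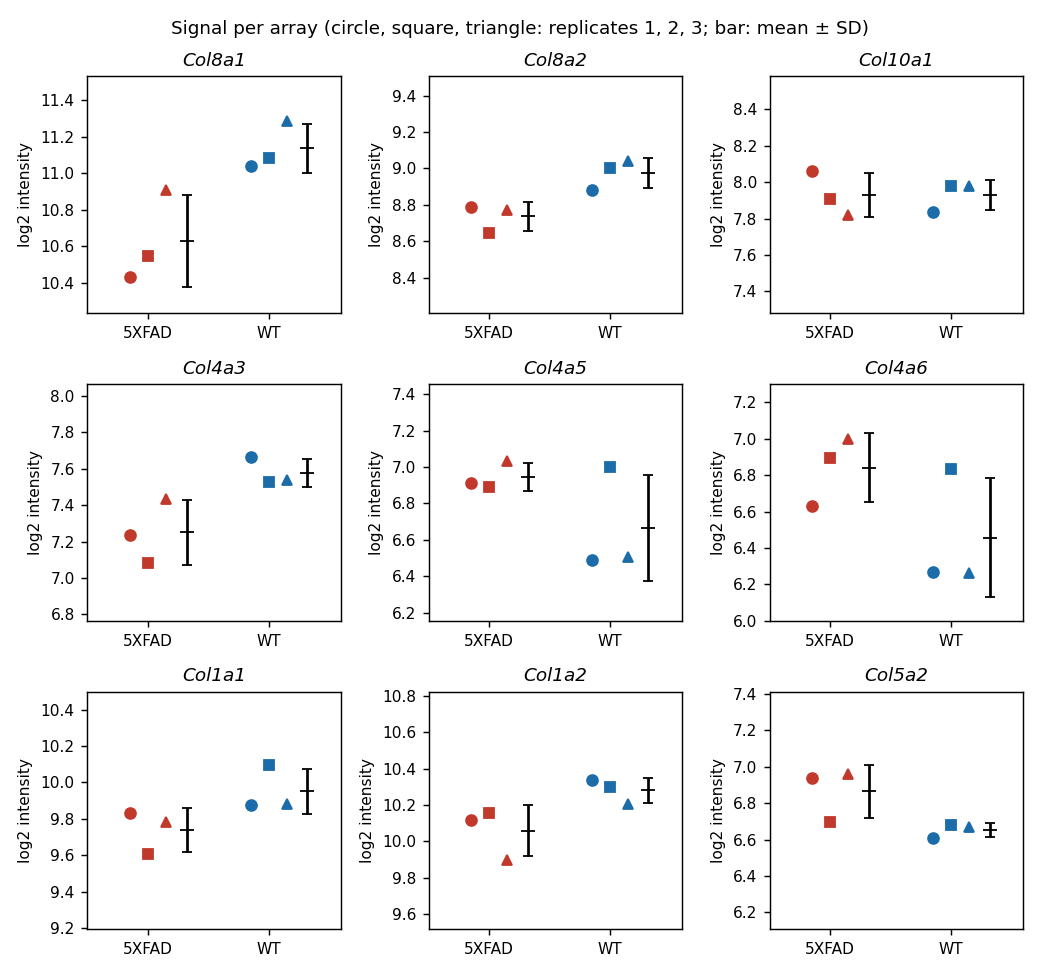
Log2 intensity (y axis, each panel 1.3 units tall) of 9 collagen genes in the 3 5XFAD arrays on the left and the 3 WT arrays on the right, with the mean ± SD as a bar and a symbol for each replicate. Col8a1, Col8a2, Col4a3, Col1a1 and Col1a2 have all 5XFAD arrays below all WT arrays and Col5a2 has them above, while WT replicate 2 joins the 5XFAD arrays in Col4a5 and Col4a6.

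Fibrillar chains differed by at most 0.22 in either direction. Col1a1 and Col1a2 encode the chains of type I collagen, the main fibre of the sclera. Col1a1 had 9.83, 9.60 and 9.78 in 5XFAD, against 9.88, 10.10 and 9.88 in WT, a difference of -0.21 with an interval of -0.46 to 0.04 (limma, Benjamini-Hochberg adjusted p = 0.86). Col1a2 had 10.12, 10.16 and 9.90 in 5XFAD, against 10.34, 10.30 and 10.20 in WT, a difference of -0.22 with an interval of -0.47 to 0.02 (limma, Benjamini-Hochberg adjusted p = 0.83). In both genes the arrays did not overlap, but they were separated by less than the spread within a group. The dimmer second probe set of Col1a2 had 6.73, 7.12 and 6.46 in 5XFAD, against 7.02, 6.92 and 6.63 in WT, and there the arrays overlapped and the difference was -0.08 ± 0.18 (SE). Col3a1, the chain of type III collagen of distensible tissues, had 8.34, 8.22 and 8.47 in 5XFAD, against 8.35, 8.45 and 8.57 in WT, with overlap and a difference of -0.11 ± 0.11 (SE).

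Type V collagen co-assembles with type I and limits fibril diameter, and one of its chains differed in the other direction. Col5a2 had 6.94, 6.70 and 6.96 in 5XFAD, against 6.61, 6.68 and 6.67 in WT, so that 5XFAD replicate 2 lay just above the WT arrays. The difference was 0.21, with an interval of -0.03 to 0.45 (limma, Benjamini-Hochberg adjusted p = 0.85). Col5a1 had 7.61, 7.57 and 7.57 in 5XFAD, against 7.64, 7.55 and 7.39 in WT (difference 0.05 ± 0.10, SE), and Col5a3 had 6.58, 6.58 and 6.80 in 5XFAD, against 6.59, 6.53 and 6.71 in WT (0.04 ± 0.11). Both overlapped. Col11a1, a chain of type XI that accompanies type II collagen in cartilage and vitreous, had 7.71, 7.65 and 7.72 in 5XFAD, against 7.60, 7.61 and 7.61 in WT, apart by a difference of 0.08 ± 0.09 (SE). Col2a1 differed by -0.08 and Col11a2 by -0.18, and the minor fibrillar chains Col24a1 and Col27a1 by -0.15 and -0.01. The class median was -0.08, with 4 of 11 genes positive, and 0 of 11 had an unadjusted p under 0.05 in limma, against 6.28% of all genes. Over 11 cartilage markers that are not collagens, the list mean was between 6.16 and 6.39 in 5XFAD and between 6.24 and 6.50 in WT.

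None of the 22 other chains reached an absolute difference of 0.2, where 16.9% of all genes and 9 of the 44 members did. In limma 0 of 22 had an unadjusted p under 0.05, against 6.28% of all genes. Their differences ran from -0.17 (Col9a3, a chain of type IX, which decorates type II fibrils) to 0.17 (Col23a1, a transmembrane collagen), with a median of -0.01. Col23a1 had 8.14, 8.20 and 8.25 in 5XFAD, against 7.89, 8.18 and 8.01 in WT, where WT replicate 2 overlapped the 5XFAD arrays. Col17a1, the transmembrane collagen that anchors basal keratinocytes through hemidesmosomes, had 5.82, 5.91 and 6.10 in 5XFAD, against 5.70, 5.78 and 5.83 in WT. The groups met at 5XFAD replicate 1, which lay below WT replicate 3, and the difference was 0.17 with an interval of -0.07 to 0.41. Col7a1, the chain of the anchoring fibrils beneath stratified epithelium, had 5.86, 5.80 and 5.91 in 5XFAD, against 5.89, 5.76 and 5.90 in WT, a difference of 0.002 with an interval of -0.22 to 0.22. Among 16 surface epithelium markers in the same arrays, Krt15 differed by 3.55, Krt4 by 3.21, Krt6a by 1.86 and Krt13 by 1.55. In the same list Trp63 differed by 0.09, Perp by -0.01, Aldh3a1 by -0.07 and Dsp by -0.19. Of the 16 markers, 12 were positive. At an unadjusted p under 0.05 limma gave 8 higher and 0 lower, against 2.89% and 3.39% of all genes. Col25a1, whose shed product is a component of amyloid plaques in the human Alzheimer's disease brain, had 6.31, 6.38 and 6.06 in 5XFAD, against 6.34, 5.94 and 6.22 in WT. Its arrays overlapped, with a difference of 0.09 and an interval of -0.22 to 0.39.

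Type VI collagen forms beaded microfilaments around cells, and its 6 chains differed by -0.12 to 0.006. Col6a6 had 5.70, 5.74 and 5.67 in 5XFAD, against 5.82, 5.86 and 5.80 in WT, and the arrays were apart in this gene although the difference of -0.12 ± 0.09 (SE) was small. Col6a1, Col6a2 and Col6a3, the chains of the usual trimer, differed by 0.006, -0.10 and -0.05. The fibril-associated chains Col12a1 and Col14a1, which sit on the surface of type I fibrils, differed by -0.03 and 0.16, with intervals of -0.28 to 0.23 and -0.13 to 0.45. Col28a1 had 4.89 in 5XFAD replicate 1, against 5.34 to 5.50 in the remaining 5 arrays, and its difference was -0.12 ± 0.16 (SE).

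The arrays differed in how often they gave the highest or lowest value of a collagen gene. 5XFAD replicate 3 was the highest of the 6 arrays in 13 of 44 members and WT replicate 3 in 14, where over all genes these arrays were the highest in 16.1% and 21.0%. 5XFAD replicate 2 was the lowest in 10 members and WT replicate 1 in 11, against 17.3% and 13.3% of all genes. The mean over all 44 genes lay between 7.19 and 7.28 in the 5XFAD arrays and between 7.21 and 7.30 in the WT arrays. Class means overlapped for fibrillar (7.42 to 7.54 in 5XFAD, against 7.48 to 7.60 in WT), basement membrane (7.04 to 7.33 in 5XFAD, against 7.03 to 7.25 in WT) and other chains (6.85 to 6.88 in 5XFAD, against 6.82 to 6.95 in WT), and did not for network chains (9.03 to 9.17 in 5XFAD, against 9.25 to 9.44 in WT). The network class holds only 3 genes, and its separation comes from Col8a1 and Col8a2, since Col10a1 differed by 0.0003. Of these arrays, 5XFAD replicate 1 and WT replicate 3 had the highest means of skeletal muscle markers, at 7.40 and 6.97, against 5.60 to 6.62 in the others. Over all probe sets, correlations between arrays were 0.981 to 0.990 within groups and 0.983 to 0.990 between groups, and array medians were 5.59 to 5.71.

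**Figure D4:**
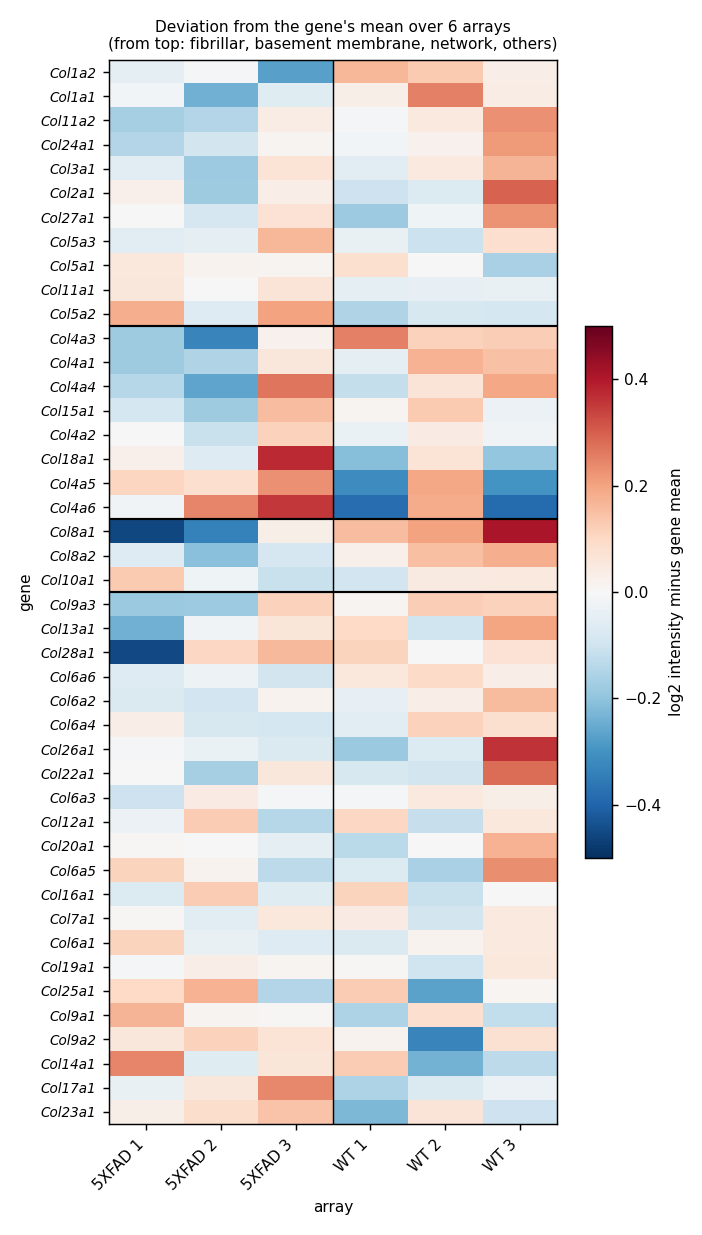
Deviation of each collagen gene (rows, by class and then by difference) from its own mean over the 6 arrays, as log2 intensity, in the 3 5XFAD arrays on the left and the 3 WT arrays on the right, with red above and blue below the mean. Col8a1 and Col8a2 are blue or pale in 5XFAD and red or pale in WT, and most other rows change colour within a group.

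Genes that fold, process, cross-link, bind or degrade collagens, and partners of basement membranes and hemidesmosomes, were compared in 7 lists with 80 measured genes. None passed the threshold (limma, Benjamini-Hochberg adjusted, 0 of 80, lowest adjusted p = 0.45). At an unadjusted p under 0.05 limma gave 7 higher genes, or 8.75%, against 2.89% of all genes, and 3 lower genes, or 3.75%, against 3.39%. The cross-linking list held 3 of the 7. Lox, the lysyl oxidase that starts cross-links in fibrils, had 8.57, 8.06 and 8.06 in 5XFAD, against 7.84, 7.58 and 7.64 in WT, with all arrays apart. Its difference was 0.54 ± 0.15 (SE; limma, Benjamini-Hochberg adjusted p = 0.53). Loxl3, a related oxidase, had 7.80, 7.99 and 7.88 in 5XFAD, against 7.60, 7.78 and 7.46 in WT (difference 0.28 ± 0.11, SE). Pxdn, the peroxidase that joins type IV collagen by sulfilimine bonds, had 7.12, 6.92 and 7.35 in 5XFAD, against 6.77, 7.03 and 6.58 in WT. WT replicate 2 again overlapped the 5XFAD arrays there, and the difference was 0.34 ± 0.15 (SE). Of 6 cross-linking genes 5 were positive, with a median of 0.16, while Loxl4 differed by -0.34 ± 0.15 (SE).

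Among 18 partners of the basement membrane, limma put 2 higher and 0 lower at the unadjusted threshold of 0.05, against 2.89% and 3.39% of all genes. Fn1, encoding the matrix glycoprotein fibronectin, had 10.35, 10.18 and 10.44 in 5XFAD, against 10.08, 9.94 and 9.94 in WT, and Lama3, a laminin chain of epithelial membranes, had 6.61, 6.89 and 6.87 in 5XFAD, against 6.48, 6.51 and 6.52 in WT. Both were apart, by 0.34 ± 0.11 and 0.29 ± 0.11 (SE). In the folding and secretion list, with 21 genes and a median of 0.005, Colgalt2, a collagen galactosyltransferase, had 6.45, 6.89 and 6.56 in 5XFAD, against 6.01, 6.63 and 5.95 in WT, again with WT replicate 2 among the 5XFAD arrays (0.43 ± 0.19, SE). P4ha1, a prolyl hydroxylase subunit, had 8.27, 8.31 and 8.05 in 5XFAD, against 8.31, 8.48 and 8.61 in WT, a difference of -0.26 ± 0.12 (SE) in which the highest 5XFAD array and the lowest WT array nearly touched.

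Enzymes that trim or degrade collagen gave the 3 lower partners. Fap, a surface protease of activated fibroblasts, had 9.05, 8.73 and 9.20 in 5XFAD, against 9.49, 9.47 and 9.55 in WT, with all arrays apart and a difference of -0.51 ± 0.13 (SE; limma, Benjamini-Hochberg adjusted p = 0.45). Mep1b and Tll2, dim on these arrays, differed by -0.31 ± 0.11 and -0.24 ± 0.11 (SE). Mmp8, a neutrophil collagenase, had 5.14, 5.31 and 4.95 in 5XFAD, against 4.81, 4.70 and 4.98 in WT, a difference of 0.30 ± 0.13 (SE). Of 10 degrading enzymes 8 were positive, with a median of 0.06, and of 9 processing enzymes 3 were, with a median of -0.09. Among 11 collagen receptors (median 0.03) and 5 hemidesmosome partners (median 0.14), limma gave 0 genes at an unadjusted p under 0.05, against 6.28% of all genes. The smallest p belonged to Adgrg1, a receptor of type III collagen (0.29 ± 0.15, SE), and to Cd151, a tetraspanin of hemidesmosomes (0.23 ± 0.14). Itga11, an integrin chain that binds fibrillar collagen, and Plec, the hemidesmosome linker plectin, followed with differences of 0.18 and 0.14.

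Markers of the cells that the dissection can hold were read in 14 lists. The RPE list was lower in 5XFAD (median difference -0.48, 13 of 16 at an unadjusted p under 0.05 in limma), and the surface epithelium list was higher (0.38, 8 of 16, of which 4 passed the adjusted threshold). Over all genes 3.39% were lower and 2.89% higher at that unadjusted p. The median differences were 0.60 for skeletal muscle, 0.22 for fibroblasts and sclera without collagens, 0.19 for smooth muscle and pericytes, 0.06 for macrophages and 0.05 for melanocytes. They were -0.14 for rods and cones, -0.12 for Schwann cells, -0.07 for bone, -0.04 for lens, -0.03 for adipocytes, -0.02 for cartilage and -0.01 for endothelium. For the labelled tissue, array means ran from 10.26 to 10.84 for RPE, from 10.55 to 10.90 for melanocytes and from 8.90 to 9.35 for fibroblasts and sclera.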

How the data were processed

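RNA of 6 samples was measured on 6 arrays, 3 per genotype, grouped by the sample titles. The authors deposited log2 intensity values per probe set. Per the submitters' processing notes, these came from RMA in Affymetrix Expression Console 1.1, a method that subtracts background, equalises the distributions of the arrays and summarises the probes of a set. It compresses differences of dim genes: 2 members lay in the dimmest 30% of genes and 10 in the dimmest 50%.

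Of 33793 probe sets, 23521 had 1 symbol in the platform annotation, 1814 had several and 8458 had none there. With several probe sets per gene, the one of highest mean was kept, which left 22180 genes (3 members had 2 probe sets). A further probe set with several symbols, Col6a1 among them, was left out. Differences were fitted over all genes in limma 3.58.1 (R 4.3.3) with genotype alone in the model, using lmFit, then eBayes with 5.23 prior and 4 residual degrees of freedom. Tests were two-sided, with Benjamini-Hochberg adjustment and a threshold of 0.05, and the code was tested on simulated data. Members are described by counts and medians, without a list test. The members, lists and classes were chosen with earlier results of these data known.

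Array values were given by rule for members at an unadjusted p under 0.05, members apart by at least 0.3, the member of largest difference in each class, types I, III, IV and V, Col8a1, Col8a2, Col10a1, Col17a1, Col18a1 and Col25a1, and in partner lists the 2 to 4 genes of smallest p were named. The same rule was meant for marker lists, but only RPE and surface epithelium markers are named, and the other marker lists are given as list values. Dsp, Trp63, Perp, Aldh3a1, Pax6 and Best1 were named after their values were seen. Col11a1, Col6a6, Col7a1 and Col28a1 were given array values after theirs were seen. Of the listed partners and markers, 15 had no probe set with 1 symbol and were not used here. Alternatives covered normalization, filters on dim genes, probe set choice, the prior, array weights, marker covariates, a replicate block and leaving out each array.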

Additional observations from a re-analysis of the deposited data

How the results depend on the processing

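Across 17 other settings and 1 more, the RPE mean as a covariate, chosen after seeing the data, 0 collagen genes passed the adjusted threshold. The differences of the 9 members that were at an unadjusted p under 0.05 or apart kept their sign, except with a marker mean as a covariate that separates the groups. With the surface epithelium mean, Col1a2 was 0.18 and Col4a6 -0.42, and with the RPE mean Col1a1 was 0.37 and Col8a2 0.094. The surface epithelium mean also gave -1.40 for Col8a1 and -0.68 for Col4a3. In that fit Col4a3 was not at an unadjusted p under 0.05, whereas Col28a1 was (-1.27, limma, unadjusted p = 0.012). Among the other 35 members, 23 changed sign under at least 1 of the 17 settings. The count of higher members (1) was 0 without the dimmest 50% of genes, after quantile normalization again, with arrays centred on their medians and with the surface epithelium mean, 2 with array weights and 3 with the RPE mean, which also gave 1 lower member. Members above all WT arrays (2) numbered 1 after quantile normalization again and 1 with centred arrays. The lower count (3) was 2 with centred arrays and 2 with array weights, where Col8a2 had unadjusted p of 0.053 and 0.060 in limma, 2 with the skeletal muscle or surface epithelium mean, and 4 after quantile normalization again. Members below all WT arrays (6) numbered 4 with centred arrays and 5 without the dimmest 50% or with another choice of probe set (their mean, or the one of highest variance). The basement membrane median was -0.50 with the surface epithelium mean and 0.63 with the RPE mean, which gave 0.17 for fibrillar and 0.094 for network chains. Leaving out each array in turn gave 0 to 2 higher and 1 to 3 lower members. In those fits 2.5% to 3.8% of all genes were higher and 2.6% to 4.7% lower. Members above all WT arrays then numbered 2 to 7 and members below them 6 to 14. Fewer arrays separate more easily, and the share over all genes was not computed for those fits, so these counts are not read as a result. The medians were -0.07 to 0.01 for all members, -0.15 to -0.01 for fibrillar, -0.11 to 0.04 for basement membrane, -0.29 to -0.19 for network and -0.05 to 0.04 for other chains. Among all genes 5 passed the adjusted threshold, against 8 without the dimmest 30%, 9 with centred arrays, 9 with a trended and robust prior, 8 with array weights, 19 without WT replicate 2, 3 without WT replicate 3 and 0 with either of those marker means. The cause of these shifts was not tested. Deviations of samples with the same replicate number had correlations of -0.06, -0.05 and 0.13 over all genes. With 3 samples per group these cannot show whether the samples were paired. With the replicate number as a block limma gave 3 members at an unadjusted p under 0.05 in place of 4. Col8a2 was then at 0.066, Col4a6 at 0.028 and Col8a1 at an adjusted p of 0.32. Counts of arrays apart cannot change with a covariate, prior or weight. The number of arrays and the compression of dim signals limit what could be seen.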

Other observations

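Several collagen genes are neighbours among the protein-coding genes of RefSeq, and their differences are given here side by side without a test. The pairs of type IV chains on chromosomes 1, 8 and X differed by -0.33 (Col4a3) and -0.09 (Col4a4), by -0.18 (Col4a1) and 0.006 (Col4a2), and by 0.39 (Col4a6) and 0.28 (Col4a5). Col3a1 and Col5a2, adjacent on chromosome 1 and both fibrillar, differed by -0.11 and 0.21. Col9a1 and Col19a1 on the same chromosome differed by 0.13 and 0.03. The type VI chains Col6a2 and Col6a1 on chromosome 10 differed by -0.10 and 0.006, and Col6a6, Col6a5 and Col6a4 in a row on chromosome 9 by -0.12, -0.0009 and -0.09.

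The second probe sets of Col5a1 and Col6a1 gave differences of -0.02 ± 0.11 and -0.003 ± 0.13 (SE), against 0.05 and 0.006 for the brighter ones. In Col5a1 the second had 5.21, 5.39 and 5.25 in 5XFAD, against 5.32, 5.17 and 5.44 in WT.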
